A study of Mus musculus with 6 samples.

Results

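The genes described here are 10 members of the CCN matricellular family and of the Hippo-YAP pathway, chosen by symbol: Ccn1, Ccn2, Ccn4, Yap1, Wwtr1, Tead1, Tead2, Tead3, Lats2 and Amotl2. All 10 were among the 11896 named genes of the deposited table, and all 10 passed the filter of a mean of 1 FPKM that left 10905 genes for testing. They were measured by RNA-seq of total RNA in primary mouse bone marrow stromal cells, 3 libraries labelled wild type (WT) and 3 labelled Pth1rΔNLS, an allele of the parathyroid hormone receptor gene whose name refers to a missing nuclear localisation signal. The design text of the series calls the Pth1rΔNLS animals heterozygous. Strain, age, sex, the way the cells were isolated and whether each library came from its own mouse are not stated in the labels, so the p-values measure only the spread between these libraries, which may be technical.

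The Hippo pathway is a kinase cascade that limits the activity of the coactivators YAP (gene Yap1) and TAZ (gene Wwtr1). MST kinases activate LATS kinases, which phosphorylate YAP and TAZ and keep them out of the nucleus, and angiomotins such as the product of Amotl2 bind YAP and hold it in the cytoplasm or at junctions. In the nucleus YAP and TAZ bind TEAD transcription factors and turn on genes that include Ccn1, Ccn2, Lats2 and Amotl2, so that the last pair forms a negative feedback. CCN proteins are secreted, bind integrins and matrix, and in cells of the mesenchymal lineage respond to stiffness, stretch, TGF-beta and WNT signals.

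Of the 10 genes, 6 fell in Pth1rΔNLS cells (Ccn1, Ccn2, Ccn4, Yap1, Wwtr1 and Lats2), and 4 did not pass the test (Tead1, Tead2, Tead3 and Amotl2). The test was limma on log2(FPKM + 1) over all 10905 genes, two-sided, with Benjamini-Hochberg adjustment and a threshold of 0.05. Over all genes tested, 10.4% were lower by the same rule and 6.94% were higher. None of the 10 rose, 0 also at an unadjusted p under 0.05 in limma, the only tool run. The libraries of the 6 genes that fell did not overlap between genotypes, which was so for 36.6% of all tested genes. The median log2 fold change was -0.72 over the 10 genes and -0.01 over all tested genes.

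**Figure D1:**
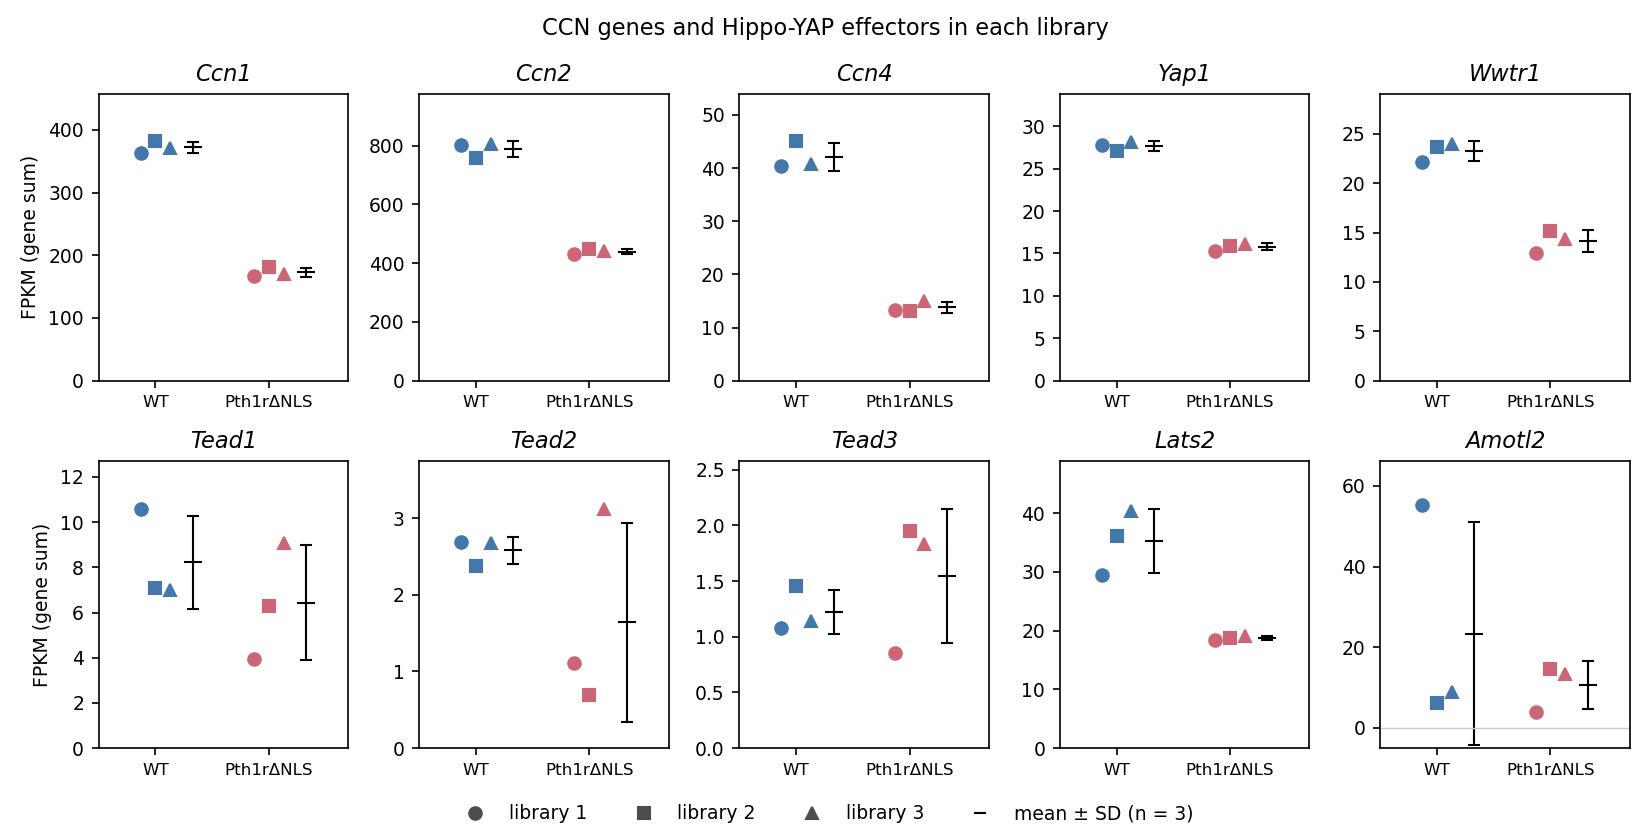
FPKM summed over the listed transcripts of each gene (vertical axes, linear, different for each gene) in the 3 WT and 3 Pth1rΔNLS libraries, with the mean and SD beside the points. The points of Ccn1, Ccn2, Ccn4, Yap1, Wwtr1 and Lats2 form separate groups, while those of the 3 TEAD genes and Amotl2 overlap, with a single WT library of Amotl2 at 55.2 FPKM.

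Promoter sequences are shown for Ccn1, Yap1 and Wwtr1, the 3 genes that fell and whose upstream bases hold the DNA motif that TEAD factors recognise. They come from RefSeq on GRCm38.p6 (the build that mm10 names), are the 250 bases before a start site, and read 5′ to 3′ on the minus strand, which is the gene's strand. Wwtr1 has more than 1 start site in RefSeq, and a single one is shown. Capitals mark the TEAD motif GGAATG or its reverse complement, extended to 7 bases where the longer form ACATTCC or its reverse complement GGAATGT matched.
Ccn1, chr3:145649986-145650235: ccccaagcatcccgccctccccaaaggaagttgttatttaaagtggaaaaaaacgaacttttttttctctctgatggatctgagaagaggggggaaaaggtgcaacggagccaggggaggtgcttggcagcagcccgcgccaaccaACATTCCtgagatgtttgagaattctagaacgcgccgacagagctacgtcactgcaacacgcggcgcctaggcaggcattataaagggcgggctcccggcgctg
Yap1, chr9:8004597-8004846: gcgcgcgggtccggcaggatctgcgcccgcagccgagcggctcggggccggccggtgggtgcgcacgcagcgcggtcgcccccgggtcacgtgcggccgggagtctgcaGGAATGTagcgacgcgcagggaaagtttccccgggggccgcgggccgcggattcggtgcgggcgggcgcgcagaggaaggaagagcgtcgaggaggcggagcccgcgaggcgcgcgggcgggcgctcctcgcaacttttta
Wwtr1, chr3:57575911-57576160: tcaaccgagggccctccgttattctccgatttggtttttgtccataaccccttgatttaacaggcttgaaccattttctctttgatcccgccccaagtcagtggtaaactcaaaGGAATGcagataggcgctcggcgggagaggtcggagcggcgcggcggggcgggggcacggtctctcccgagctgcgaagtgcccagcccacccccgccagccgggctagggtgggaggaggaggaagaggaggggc
The motif began at offset -104 from the start site in Ccn1, -141 in Yap1 and -136 in Wwtr1.

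RefSeq promoter windows, 250 bases before to 50 after a start site, were at hand for 7 of the 10 genes (Ccn1, Yap1, Wwtr1, Tead2, Tead3, Lats2 and Amotl2). GGAATG on either strand was in at least 1 window of 6 of the 7, all but Tead2, and of 16.6% of all 27025 genes with a window. Tead3, Wwtr1 and Lats2 had more than 1 window each, and all genes together had 32851. A gene with more windows has more places for a match, and the shares were not adjusted for that. Ccn1, Lats2 and Amotl2 are among the genes that YAP and TAZ turn on through TEAD factors. A share above that of all genes can therefore follow from the choice of genes. The longer ACATTCC, which contains the shorter motif, was in windows of 4 (Ccn1, Yap1, Tead3 and Amotl2) and of 4.47% of all genes. Genes that fell (Ccn1, Yap1, Wwtr1 and Lats2) and genes that did not pass (Tead3 and Amotl2) were both among those with a match. The SMAD motif CAGAC was in windows of Ccn1, Lats2 and Yap1, against 53.2% of all genes, and the SRF CArG box was in 0 of the 7 genes' windows, against 1.81% of all genes. A match describes letters only, and no binding was measured.

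Ccn2, which encodes connective tissue growth factor (ENSMUSG00000019997.11, chromosome 10, 24595442 to 24598683, mm10), was the most abundant of the 10 genes. Its level was 800.8, 757 and 805 FPKM (fragments per transcript length and sequenced fragments) in WT libraries 1, 2 and 3 and 430.1, 447 and 441 FPKM in Pth1rΔNLS libraries 1, 2 and 3. Every Pth1rΔNLS value stood below every WT value, and the spread within each genotype was small, with means of 788 ± 26.5 and 439 ± 8.53 FPKM (SD, n = 3 each, as for every mean ± SD that follows). On the log2 scale it fell by 0.84 (SE 0.06, limma adjusted p = 0.000603). An exact two-sided permutation test over the 20 assignments of libraries gave p = 0.1, the smallest it can give, here and for each of the other 5 genes that fell.

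Ccn1, which encodes the matricellular protein CYR61 (ENSMUSG00000028195.4, chromosome 3, 145646976 to 145649981), stood at 364, 382 and 371 FPKM in WT and 167, 181 and 169 FPKM in Pth1rΔNLS. All 3 mutant libraries were at a similar level, and their mean of 173 ± 7.40 FPKM was 46.4% of the WT mean of 372 ± 9.17 FPKM. It fell by 1.10 on the log2 scale (SE 0.06, limma adjusted p = 0.000233). The gene has 1 annotated transcript, so its value does not depend on how reads were divided between transcripts.

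Ccn4, known as WISP1 and induced by WNT signalling (ENSMUSG00000005124.10, chromosome 15, 66891320 to 66923201), had the largest fold change of the 10. Its level was 40.4, 45.0 and 40.8 FPKM in WT and 13.4, 13.2 and 15.05 FPKM in Pth1rΔNLS, a log2 fold change of -1.54 (SE 0.08, limma adjusted p = 0.000207). The groups were far apart, the mutant mean being 32.9% of the WT mean. Of 6 annotated transcripts, 1 was listed.

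Ratios between the CCN genes were compared within libraries. The ratio of Ccn4 to Ccn2 FPKM was 0.0505, 0.0595 and 0.0507 in WT and 0.0311, 0.0294 and 0.0341 in Pth1rΔNLS, and the ratio of Ccn1 to Ccn2 was 0.454, 0.504 and 0.460 in WT and 0.389, 0.405 and 0.384 in Pth1rΔNLS. In both ratios every mutant library was below every WT library, by log2 differences of -0.76 and -0.27. The exact permutation test gave p = 0.1 for each, the smallest possible, over 4 ratios tested, so neither could pass a threshold of 0.05 with 3 libraries a group. Such a ratio within a library does not depend on how libraries were scaled.

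All 5 CCN family genes in the table fell, beside 10.4% of tested genes (Ccn6 was not analysed here). Ccn5, known as WISP2 and lacking the C-terminal domain of its relatives, was at 112, 80.04 and 104 FPKM in WT and 17.3, 20.9 and 24.0 FPKM in Pth1rΔNLS (log2 fold change -2.19, SE 0.16, limma adjusted p = 0.000572). Ccn3, known as NOV, was low in both genotypes, at 4.43, 4.15 and 3.47 FPKM in WT and 0.750, 0.893 and 0.703 FPKM in Pth1rΔNLS (log2 fold change -1.49, SE 0.12, limma adjusted p = 0.000787). The family median was -1.49, and its summed level ran from 1268 to 1324 FPKM in WT and from 629 to 663 FPKM in Pth1rΔNLS. All 5 passed in each of the runs that left out 1 library.

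Yap1, encoding the coactivator YAP (ENSMUSG00000053110.13, chromosome 9, 7931999 to 8004596), was at 27.8, 27.0 and 28.1 FPKM in WT and 15.3, 15.9 and 16.2 FPKM in Pth1rΔNLS. The values within a genotype differed little, with a coefficient of variation of 2.02% in WT against a median of 12.1% over all tested genes. Means were 27.7 ± 0.559 and 15.8 ± 0.422 FPKM (log2 fold change -0.77, SE 0.07, limma adjusted p = 0.000866).

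Most of Yap1 came from a single transcript, ENSMUST00000086580.11, at 25.6, 24.6 and 22.4 FPKM in WT and 10.8, 12.6 and 12.3 FPKM in Pth1rΔNLS (log2 fold change -0.96, limma adjusted p = 0.00694 over 17281 transcripts). It held 91.8, 90.9 and 79.5% of the gene's FPKM in WT and 70.4, 79.4 and 76.3% in Pth1rΔNLS. A second transcript, ENSMUST00000065353.12, was at 1.28, 1.65 and 4.51 FPKM in WT and 3.08, 2.78 and 2.72 FPKM in Pth1rΔNLS and did not pass (0.26, limma adjusted p = 0.749). The genotypes overlapped there because WT library 3 was the highest of the 6. Of 10 annotated Yap1 transcripts, 3 were listed.

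Wwtr1, encoding the YAP relative TAZ (ENSMUSG00000027803.14, chromosome 3, 57455649 to 57575910), stood at 22.1, 23.7 and 23.9 FPKM in WT and 13.0, 15.2 and 14.4 FPKM in Pth1rΔNLS. The groups were separate, and Wwtr1 fell by 0.68 on the log2 scale (SE 0.08, limma adjusted p = 0.00343). The ratio of Wwtr1 to Yap1 FPKM was 0.794, 0.877 and 0.851 in WT and 0.846, 0.954 and 0.891 in Pth1rΔNLS. These ratios overlapped between genotypes, with a log2 difference of 0.09 (exact permutation p = 0.3). YAP and TAZ transcripts together came to 50.9 ± 1.05 FPKM in WT and 30.0 ± 1.46 FPKM in Pth1rΔNLS (SD, n = 3 each).

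The TEAD genes, whose products carry YAP and TAZ to DNA, had the lowest mean levels of the 10 genes in both genotypes. Their values scattered widely in Pth1rΔNLS. The coefficients of variation of Tead1, Tead2 and Tead3 were 39.6, 79.0 and 38.9% there and 24.9, 6.97 and 16.3% in WT. Tead1 (ENSMUSG00000055320.17, chromosome 7, 112679318 to 112906807) was at 10.6, 7.08 and 7.01 FPKM in WT and 3.96, 6.31 and 9.06 FPKM in Pth1rΔNLS (log2 fold change -0.35, 95% interval -1.02 to 0.33, limma adjusted p = 0.463). Pth1rΔNLS library 3 was above the lower pair of WT libraries, so the genotypes overlapped.

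Tead2 (ENSMUSG00000030796.17, chromosome 7, 45215753 to 45233644) was at 2.69, 2.37 and 2.68 FPKM in WT and 1.11, 0.694 and 3.12 FPKM in Pth1rΔNLS. Mutant library 3 was the highest of all 6 and the other mutant libraries were the lowest (log2 fold change -0.54, 95% interval -1.31 to 0.22, limma adjusted p = 0.309). Without Pth1rΔNLS library 3 the gene passed as lower (-0.92, limma adjusted p = 0.0234). The intervals of Tead1 and Tead2 include both no change and falls as large as that of Yap1.

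Tead3 (ENSMUSG00000002249.21, chromosome 17, 28331671 to 28350817) was close to the filter, at 1.08, 1.45 and 1.14 FPKM in WT and 0.854, 1.95 and 1.83 FPKM in Pth1rΔNLS. Its values overlapped (log2 fold change 0.17, 95% interval -0.32 to 0.66, limma adjusted p = 0.631). The 3 TEAD genes together ran from 10.8 to 14.4 FPKM in WT and from 5.93 to 14.0 FPKM in Pth1rΔNLS. Tead1 made up 0.678 ± 0.0516 of that sum in WT and 0.673 ± 0.0292 in Pth1rΔNLS (SD, n = 3 each, exact permutation p = 0.8). Tead4 was below the filter, at 0.581 ± 0.119 and 0.325 ± 0.291 FPKM.

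Among the vestigial-like cofactors, which also bind TEAD factors, Vgll3 was at 32.3, 38.9 and 32.6 FPKM in WT and 15.7, 12.5 and 7.32 FPKM in Pth1rΔNLS. It fell by 1.52 on the log2 scale (SE 0.25, limma adjusted p = 0.00944), and every mutant library was below every WT library. Vgll4, which competes with YAP for TEAD binding, was at 9.89 ± 2.83 and 7.34 ± 2.18 FPKM and did not pass (-0.38, limma adjusted p = 0.383). Over the list of YAP, TAZ, TEAD and VGLL genes, 3 of 7 tested fell (median -0.54), beside 10.4% of all tested genes. The list includes 5 of the 10 genes, and of its 2 other tested genes 1 fell.

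Lats2, the kinase that phosphorylates YAP and TAZ and is itself a YAP target (ENSMUSG00000021959.16, chromosome 14, 57689662 to 57758388), was at 29.6, 36.1 and 40.3 FPKM in WT and 18.5, 18.7 and 19.2 FPKM in Pth1rΔNLS. The coefficient of variation was 1.92% in the mutant libraries and 15.4% in WT, and the groups were separate. Lats2 fell by 0.86 on the log2 scale (SE 0.12, limma adjusted p = 0.00470). Of 9 annotated transcripts, 6 were listed, and the main one, ENSMUST00000022531.13, was at 24.3, 31.5 and 21.6 FPKM in WT and 11.1, 16.5 and 12.5 FPKM in Pth1rΔNLS (log2 fold change -0.90, limma adjusted p = 0.0681 over all transcripts). With that transcript alone standing for the gene, tested among 1 transcript per gene, the same fold change passed (limma adjusted p = 0.0389). Its share of the gene ran from 53.55 to 88.1% between libraries. Lats1, its relative, was at 15.1 ± 1.07 and 12.8 ± 0.707 FPKM (-0.22, limma adjusted p = 0.141).

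Amotl2, an angiomotin-like scaffold that binds YAP and is a YAP target (ENSMUSG00000032531.15, chromosome 9, 102716672 to 102733418), could not be placed as higher or lower. It was at 55.2, 6.11 and 8.79 FPKM in WT and 3.82, 14.7 and 13.3 FPKM in Pth1rΔNLS. WT library 1 stood far above the other 5, and without it the mutant libraries were on both sides of the WT pair. The log2 fold change was -0.62 with a 95% interval of -2.65 to 1.41 (limma adjusted p = 0.677), and it turned to 0.30 without WT library 1. The coefficient of variation in WT was 118%, higher than in 99.7% of tested genes.

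Single transcripts of Amotl2 and Tead1 also varied between libraries. The main Amotl2 transcript, ENSMUST00000035121.13, was at 35.9, 4.40 and 1.30 FPKM in WT and 2.99, 5.87 and 12.5 FPKM in Pth1rΔNLS. Another, ENSMUST00000130602.1, was at 4.03 FPKM in WT library 1 and 7.49 FPKM in Pth1rΔNLS library 2 and was listed at 0 in the other 4. For Tead1, the transcript with most FPKM was ENSMUST00000165036.7 in WT library 1 (59.2% of the gene), ENSMUST00000059768.16 in WT library 2 (60.3%) and ENSMUST00000069256.11 in Pth1rΔNLS library 1 (49.2%). In all, 10 of the 32 listed transcripts of the 10 genes had an exact 0 in at least 1 library: 4 of Amotl2, 3 of Tead1 and 3 of Lats2. An exact 0 can be a failed estimate, since reads are divided between overlapping transcripts. Of 20 transcripts tested, 6 fell (1 each of Ccn1, Ccn4, Yap1 and Wwtr1, and 2 of Ccn2), and 0 rose (limma), beside 3.39% of all tested transcripts lower and 1.82% higher.

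**Figure D2:**
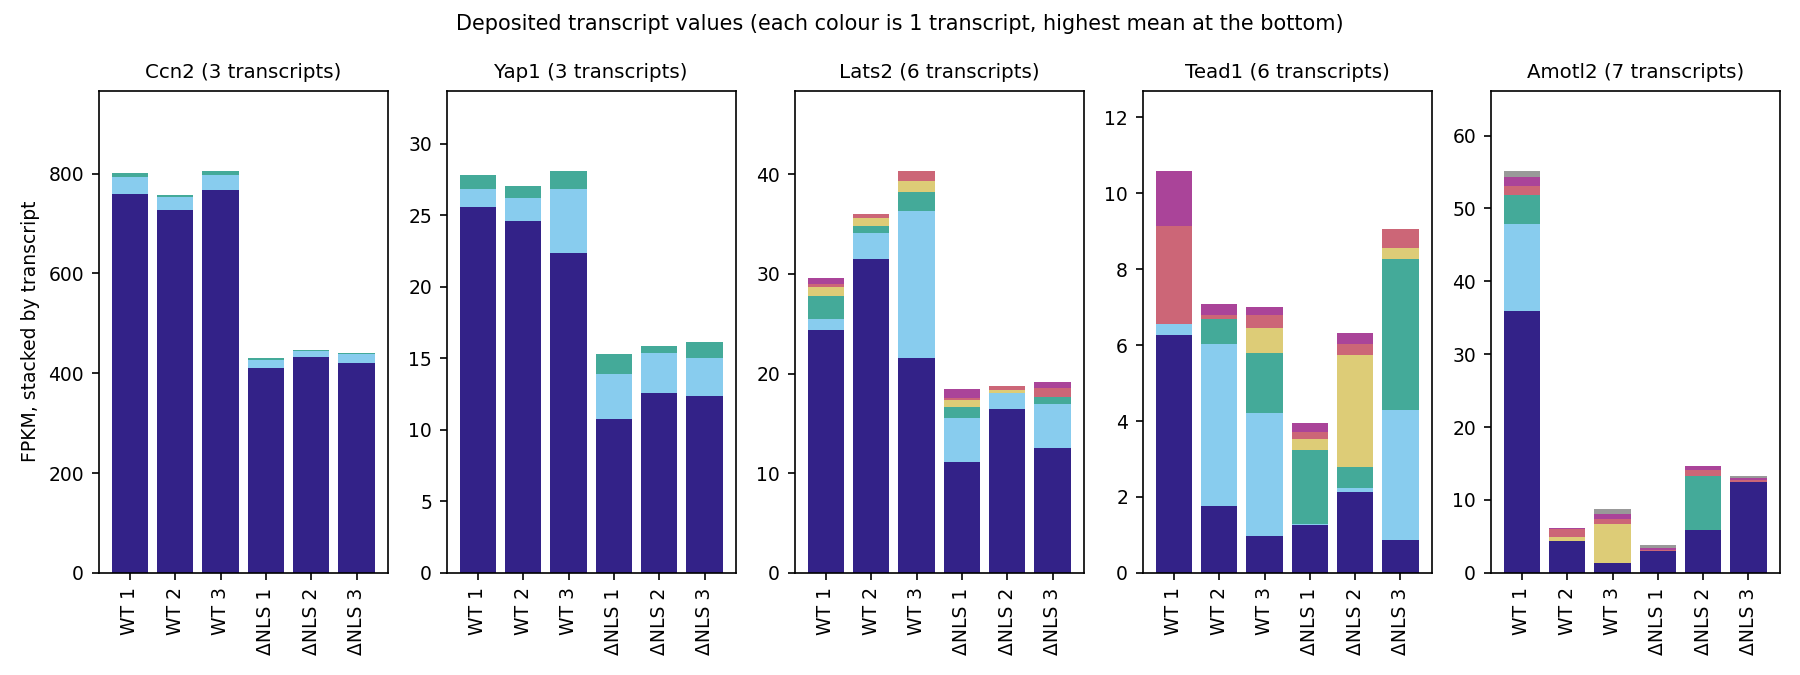
Stacked bars of the deposited FPKM of every listed transcript of Ccn2, Yap1, Lats2, Tead1 and Amotl2 (vertical axes, linear, from 0) in each library, with 1 colour per transcript within a gene. In Ccn2 and Yap1 the transcript of highest mean, drawn at the bottom, makes up most of each bar, while in Tead1 and Amotl2 different transcripts lead in different libraries.

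Set in order of level, WT libraries placed Ccn2 first, then Ccn1, Ccn4, Lats2, Yap1, Amotl2, Wwtr1, Tead1, Tead2 and Tead3. Amotl2 overlapped its neighbours Yap1 and Wwtr1 in that order, and the other neighbours had separate ranges. In Pth1rΔNLS libraries Ccn4 came below Lats2, Yap1 and Wwtr1, at 13.9 ± 1.03 FPKM against 14.2 ± 1.11 FPKM for Wwtr1, whose range it overlapped. The ranges of Ccn4 and Amotl2, of Amotl2 and Tead1 and of Tead2 and Tead3 also overlapped there.

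Other genes of the pathway were taken from lists that, like the 10 genes, were chosen with earlier results of these data known. Of 22 target genes commonly used to report YAP and TAZ activity, 21 were tested, 13 fell, 0 rose and 8 did not pass (limma, median -0.62). At an unadjusted p under 0.05 in limma, 0 were higher. Among all tested genes, 10.4% were lower and 6.94% higher. The list includes Ccn1, Ccn2, Lats2 and Amotl2, and of its 17 other tested genes 10 fell. Ccdc80, a secreted matrix-binding protein, was at 109.5, 108 and 111 FPKM in WT and 27.7, 27.6 and 26.5 FPKM in Pth1rΔNLS (log2 fold change -1.97, SE 0.06, limma adjusted p = 7.56e-05). F3, encoding tissue factor, fell from 5.88 ± 0.828 to 1.15 ± 0.153 FPKM, Tgfb2, a TGF-beta ligand, from 21.4 ± 1.97 to 8.10 ± 0.762 FPKM, and Crim1, a membrane protein that binds BMPs, from 33.2 ± 0.289 to 14.8 ± 0.963 FPKM. Axl, Nt5e, Myof, Asap1, Dock5, Nuak2, Fjx1 and Amotl2 did not pass. The number lower was 8 without WT library 1 and Pth1rΔNLS library 1 together, the libraries of lowest and highest mitochondrial share, when 3.93% of all genes were lower.

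**Figure D3:**
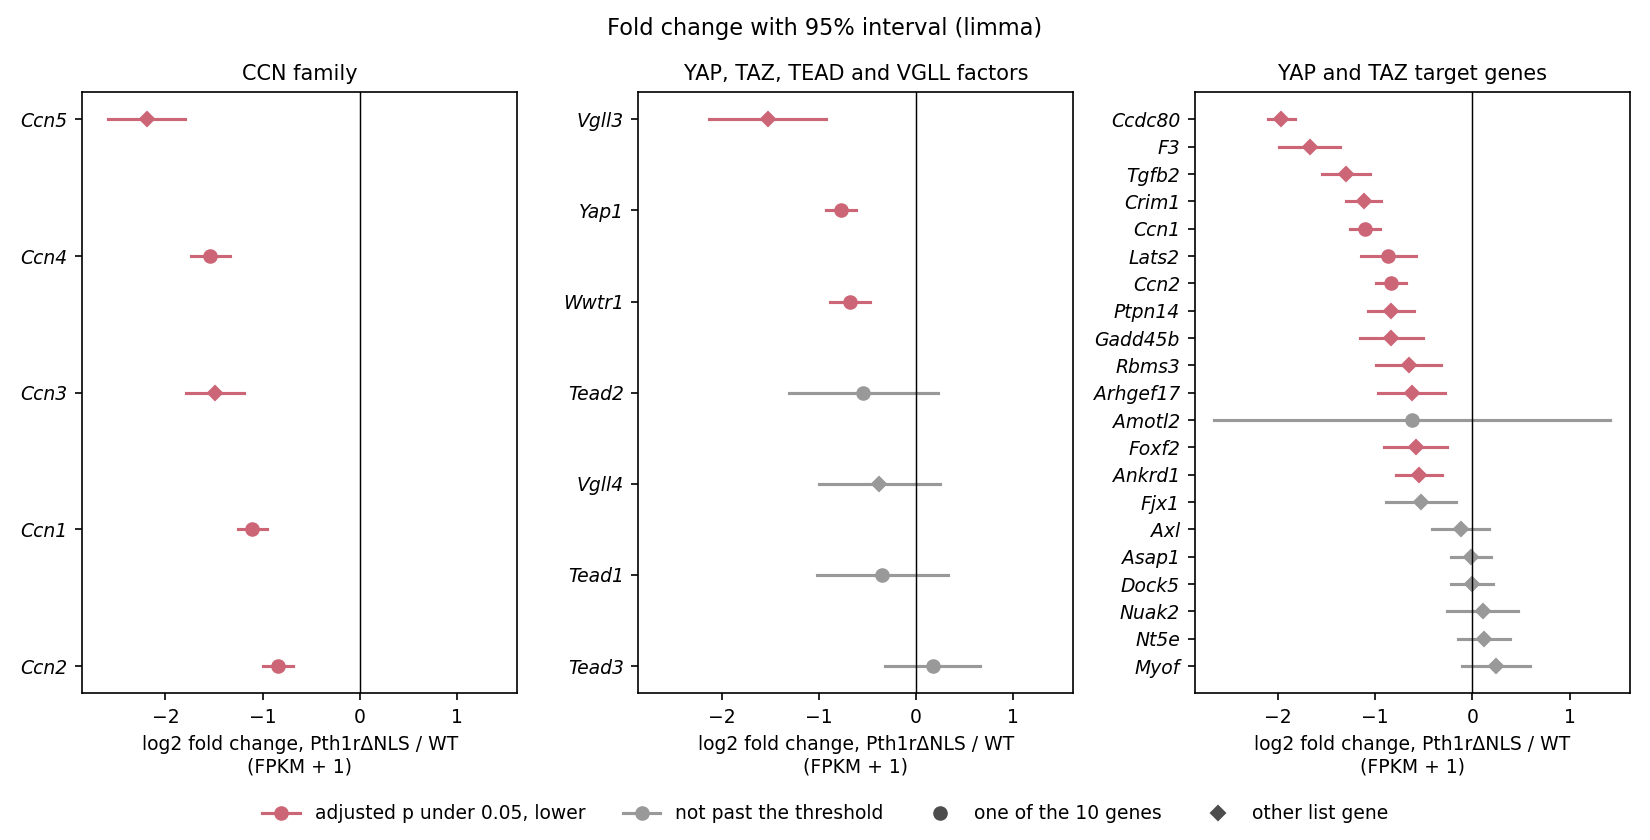
Log2 fold change on FPKM + 1 (horizontal axes, Pth1rΔNLS over WT) with its 95% limma interval for the tested genes of 3 lists, sorted within each list. All 5 CCN genes and 13 of 21 target genes lie below 0 and past the threshold, while the intervals of the TEAD genes, Vgll4 and Amotl2 include 0.

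Of 37 tested kinases and scaffolds of the Hippo cascade, 8 fell, 1 rose and 28 did not pass (median -0.24). Of the 8, 7 are outside the 10 genes. Among all tested genes, 10.4% were lower and 6.94% higher. Nuak1, a kinase related to AMPK, fell from 19.3 ± 2.01 to 7.45 ± 0.562 FPKM, and Fat1, an atypical cadherin, from 91.8 ± 3.60 to 49.3 ± 4.20 FPKM. Ptpn14, a phosphatase that binds YAP, fell from 11.9 ± 0.232 to 6.23 ± 0.687 FPKM, Amot, encoding angiomotin, from 8.15 ± 0.649 to 4.55 ± 0.573 FPKM, and Wwc2, of the KIBRA family, from 17.0 ± 1.61 to 11.2 ± 1.08 FPKM. Ptpn14 is also in the list of target genes. The gene that rose was Stk4, encoding the kinase MST1 (19.7 ± 1.23 to 24.6 ± 0.307 FPKM, log2 fold change 0.31, limma adjusted p = 0.0344), named here with its values known. Without WT library 1 and Pth1rΔNLS library 1 together, Stk4 no longer passed and 5 genes fell, beside 3.93% of all genes lower. The count of 9 changed genes was 5 without Pth1rΔNLS library 1 and 5 without Pth1rΔNLS library 2.

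The SRF and MRTF genes form a pathway that is also driven by actin tension and shares targets with YAP. Of 21 tested, 12 fell, 1 rose and 8 did not pass (median -0.60), beside 10.4% of all tested genes lower and 6.94% higher. Fhl2, a LIM-domain cofactor, fell from 133 ± 5.57 to 45.4 ± 2.32 FPKM, Vcl, encoding the focal adhesion protein vinculin, from 146 ± 1.69 to 75.7 ± 3.21 FPKM, and Acta2, smooth muscle actin, from 1518 ± 75.0 to 658 ± 36.1 FPKM. Tgfb1i1, Cnn2 and Actn1 also fell. Srf itself did not pass (-0.28, limma adjusted p = 0.329), nor did Mrtfa, while Mrtfb, an SRF coactivator, rose from 6.24 ± 0.295 to 9.13 ± 0.828 FPKM (limma adjusted p = 0.0200) and is likewise named with its values known. Without WT library 1 and Pth1rΔNLS library 1 together, Mrtfb no longer passed, and 9 genes of the list fell, beside 3.93% of all genes lower.

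Of 11 tested genes for CCN receptors, 3 rose and 0 fell in limma (median 0.19), beside 6.94% of all tested genes higher and 10.4% lower. At an unadjusted p under 0.05 in limma, 4 were higher and 2 lower. Without WT library 1 and Pth1rΔNLS library 1 together, 2 rose and 0 fell, beside 1.75% of all genes higher and 3.93% lower. Itgb2, an integrin chain of blood cells, rose from 95.2 ± 3.64 to 138 ± 6.76 FPKM, Itga6 from 44.6 ± 2.29 to 64.4 ± 2.91 FPKM and Itgb3 from 12.4 ± 0.912 to 18.2 ± 1.75 FPKM. Itgb1, the integrin chain most abundant in the list, was at 471 ± 40.3 and 384 ± 6.94 FPKM (-0.29, limma adjusted p = 0.0527).

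Markers of other cells moved in the same libraries, beside 10.4% of all tested genes lower and 6.94% higher. Of 21 macrophage genes 16 rose (median 0.48), led in level by Lyz2 (2231 ± 75.5 and 2811 ± 32.2 FPKM) and C1qb (724 ± 34.8 and 1010.1 ± 61.3 FPKM), and the list summed to 6840 to 7136 FPKM in WT and 9168 to 9738 FPKM in Pth1rΔNLS. Of 10 tested marrow stromal genes 8 fell (median -0.69), with Col1a2 and Col1a1 highest, and the list summed to 1828 to 2433 FPKM in WT and 708 to 819 FPKM in Pth1rΔNLS. Of 9 smooth muscle and pericyte genes 8 fell (median -1.21), from 2539 to 2701 FPKM summed in WT to 1273 to 1346 FPKM in Pth1rΔNLS, with Acta2 and Tagln highest. Among those that fell, Acta2, Tagln and Cnn1 are also in the SRF and MRTF list. Of 5 tested osteoblast genes 4 fell (median -1.22), beside Spp1 at 4909 ± 267 and 5440.3 ± 491 FPKM, which did not pass (limma adjusted p = 0.422), and Alpl, which fell from 18.8 ± 0.244 to 6.33 ± 0.253 FPKM. Endothelial genes were low, Emcn and Cdh5 being highest, with 2 of 4 tested lower and sums of 12.5 to 15.5 FPKM in WT and 8.37 to 10.9 FPKM in Pth1rΔNLS. Without WT library 1 and Pth1rΔNLS library 1 together, 5 macrophage genes rose (limma, with 1.75% of all genes higher). In the same run 5 marrow stromal, 7 smooth muscle and pericyte and 3 osteoblast genes fell, with 3.93% of all genes lower. Emcn and Cdh5 no longer passed there. The 2 listed neutrophil genes stayed at or below a summed 1.56 FPKM, and no marker of erythroid cells or lymphocytes was analysed here. Of the markers of the labelled cell type, 10 of 13 were listed, next to abundant macrophage transcripts, while Lepr, Thy1 and Lum were not analysed here. In bulk RNA, fewer cells of a type and less RNA per cell cannot be told apart, and the part of these marker lists in the fall of the CCN and YAP genes was not tested.

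**Figure D4:**
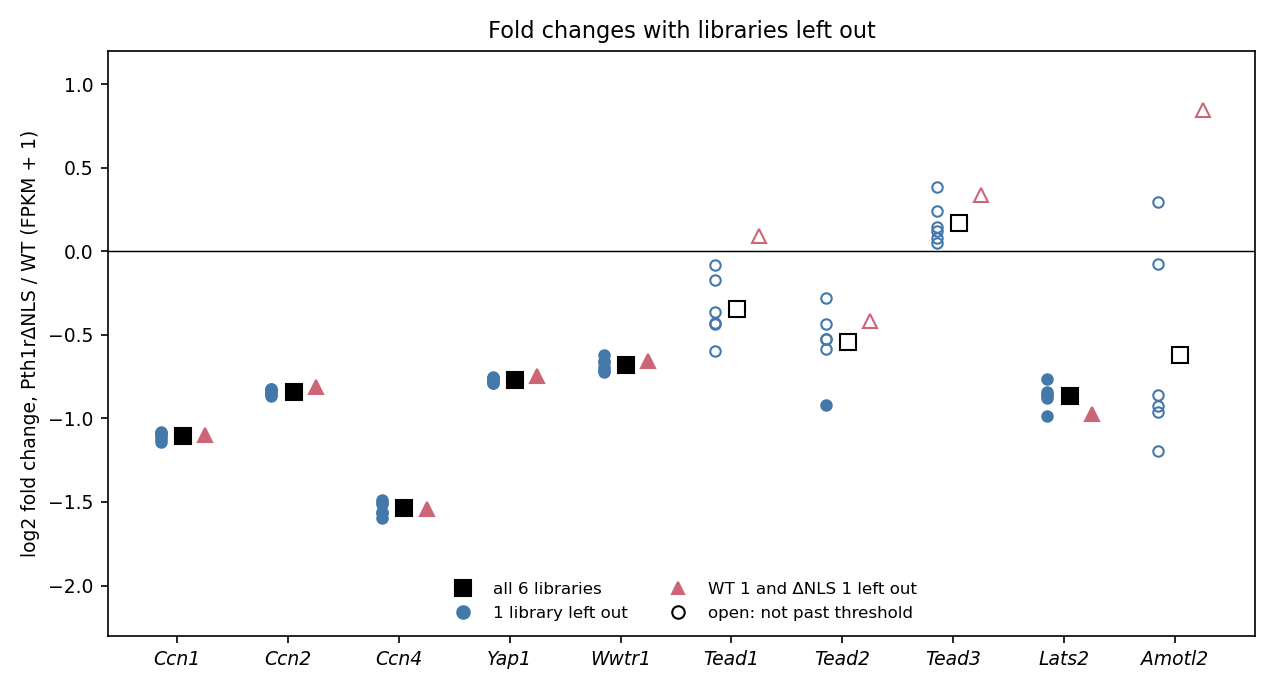
Log2 fold change on FPKM + 1 (vertical axis, Pth1rΔNLS over WT) of each gene with all 6 libraries (squares), with each library left out in turn (circles) and with WT library 1 and Pth1rΔNLS library 1 left out together (triangles); filled symbols pass an adjusted p of 0.05. The 6 genes that fell stay filled in every setting drawn, while Amotl2 and Tead1 lie on both sides of 0. Tead1 is above 0 only with WT library 1 and Pth1rΔNLS library 1 left out together.

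The 6 falls were also seen with libraries left out. Over the runs without 1 library, the highest limma adjusted p was 0.00336 for Ccn1, 0.00685 for Ccn2, 0.00287 for Ccn4, 0.00780 for Yap1, 0.0206 for Wwtr1 and 0.0239 for Lats2. Mitochondrially encoded transcripts took from 6.47% of FPKM in WT library 1 to 18.2% in Pth1rΔNLS library 1. Without that pair, all 6 passed, with fold changes of -1.10, -0.81, -1.54, -0.75, -0.65 and -0.97 for Ccn1, Ccn2, Ccn4, Yap1, Wwtr1 and Lats2 and adjusted p from 0.0147 to 0.0363.

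The genes whose log2(FPKM + 1) over the 6 libraries had the highest Pearson r with each CCN gene were Arxes2, Creb3l1 and Dvl3 for Ccn1 (r = 0.999, 0.999 and 0.999), Pcsk6, Rflnb and Yap1 for Ccn2 (r = 0.9996, 0.999 and 0.999) and Cdo1, Tbx18 and Vcl for Ccn4 (r = 0.999, 0.999 and 0.999). The 6 points fall into the 2 genotypes, and 704, 717 and 712 tested genes had r over 0.95 with Ccn1, Ccn2 and Ccn4, so these names are a description only. Arxes2 has a near-identical copy, Arxes1, and its value is uncertain.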

How the data were processed

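Values were used as the authors deposited them: 1 FPKM per transcript and library for 23351 transcripts, with HISAT2, StringTie and mm10 named in the submitters' processing notes. The file header names no unit, and FPKM was inferred because value times length summed more evenly between libraries (coefficient of variation 1.49%) than the plain values (3.46%). Sequencing depth is unknown: the best whole-read step put 25.8 to 33.3% of low values no further than 0.1 from whole reads, where chance gives 20%, so no counting interval is given.

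Transcripts were matched to GENCODE M21 by identifier (23300 named) and FPKM summed per gene. The genotype contrast was fitted on R 4.3.3 by limma 3.58.1 (eBayes with trend) on log2(FPKM + 1), which understates changes of low genes. Tables and plots used Python 3.11.15. Library ratios were tested by exact permutation, and the fit was tested on simulated data. Whether counting used strand is not stated in the labels. The genes and lists were chosen with earlier results of these data known. Named were the 10 genes, up to 6 passing genes of smallest p per list, the remaining CCN, TEAD, VGLL and LATS genes, the 3 closest profiles to each CCN gene and the 2 tested markers of highest mean per list. Genes given as not passing, Itgb1, Stk4 and Mrtfb fall outside this rule where no other part names them, and were chosen after their values were seen. Alternatives covered pseudocount, filter, scaling, variance model, weights, transcript choice, a replicate block and left-out libraries. One of them, summing only transcripts above 0 in every library, was chosen after seeing the data.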

Additional observations from a re-analysis of the deposited data

How the results depend on the processing

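The calls of Ccn1, Ccn2, Ccn4, Yap1, Wwtr1 and Lats2 kept their direction and side of the threshold in all 20 alternatives run. Leaving out 1 library, 6 to 7 of the 10 genes passed, and the total ran from 1051 to 1712 genes and 351 to 736 transcripts (1886 and 900 with all). Over the same runs, changed genes numbered 5 to 9 in the Hippo kinase list. Without the 2 libraries of extreme mitochondrial share the counts were 620 genes, 5 Hippo kinase genes and 8 YAP and TAZ target genes, Tead1 turned to 0.092 and Amotl2 to 0.84 (adjusted p = 0.0856, limma). Amotl2 ran from -1.19 to 0.30 over the runs without 1 library and turned only without WT library 1, and Tead2 passed at -0.92 without Pth1rΔNLS library 3. These runs also hold fewer samples, and the cause of the shifts was not tested. Array weights gave 14 Hippo kinase genes and 5 CCN receptor genes. With replicate number as a block, 792 genes, 4 Hippo kinase genes and 0 transcripts passed (limma, 2527 transcripts at an unadjusted p under 0.05), and all 6 members that fell still passed. Same-numbered libraries did not deviate together (r = -0.19, -0.07 and 0.07), so the numbers were not taken as pairs. Unknown depth limits what can be said of Tead2 and Tead3, the lowest of the 10 genes, which had no value under a filter of 5 FPKM.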
